A study of Homo sapiens with 6 samples.

Results

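FOXA1, HOXB13, GATA2, NCOA1, NCOA2, NCOA3 and NCOR1 encode DNA-binding partners and coregulators of the androgen receptor, the hormone-activated transcription factor that drives luminal prostate cells. These 7 genes were chosen by symbol for their known roles, with earlier results of these data known. Each was found once among the 26819 listed genes. All 7 passed the filter of at least 1 TPM in at least 3 of 6 libraries that left 14833 genes for testing. The cells were C4-2, an androgen-independent human prostate cancer line of the LNCaP lineage, and every library came from cells that carry Tet-O-YAP5SA. This construct encodes a constitutively active form of the transcriptional coactivator YAP1 under a tetracycline-responsive promoter. The 3 Dox libraries came from cells given doxycycline for 24 hours, at a dose written as 0.2 mg/ml in the labels, and the 3 Ctrl libraries from the same line without it. The labels do not say whether the line is clonal. Nor do they say that the replicates were grown separately, and the spread that the p-values are based on may therefore be technical. Cells without the transgene that received doxycycline are not part of the design, so effects of the drug and of the transgene cannot be told apart.

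Pioneer factors open compacted chromatin and mark the sites at which the receptor later binds. FOXA1, a forkhead protein, GATA2, a zinc-finger protein, and HOXB13, a homeobox protein of the prostate, act in this way in prostate cancer cells. Once on DNA, the hormone-bound receptor recruits p160 coactivators (NCOA1, NCOA2 and NCOA3, also called SRC-1, SRC-2 and SRC-3), which bring in histone acetyltransferases, whereas NCOR1 is the scaffold of a corepressor complex that contains the deacetylase HDAC3.

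Reads recovered from TPM and summed over the tested genes came to 24914226 to 29207519 per Dox library and 27546897 to 28759617 per Ctrl library. They rest on an inferred length for 5718 genes and are not the full sequencing depth. YAP1, the gene of the construct, was measured at 263, 277 and 268 TPM in Dox 1 to 3, against 52.7, 57.9 and 59.9 TPM in Ctrl 1 to 3. TPM, a transcript abundance, divides reads by gene length and scales each library to the same total. Of 7 luminal markers all were expressed, with KLK3 at 1776 to 1810 TPM in Dox and 3222 to 3359 TPM in Ctrl and KRT18 at 712 to 720 TPM in Dox and 517 to 535 TPM in Ctrl. The 3 basal, the 3 neuroendocrine and the 2 listed of 5 stromal, endothelial and immune markers reached at most 1.75 TPM in any library, with summed levels of 1.17 to 1.76, 0.916 to 1.13 and 0.0141 to 0.113 TPM in Dox and 1.36 to 1.71, 0.807 to 1.23 and 0 to 0.0138 TPM in Ctrl. Of the basal markers, KRT14 was at 1.17 to 1.75 TPM in Dox and 1.32 to 1.66 TPM in Ctrl, and KRT5 and TP63 were at or near 0 in all libraries. In bulk RNA, fewer cells that express a gene and less RNA per cell cannot be told apart.

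FOXA1, GATA2, NCOA1, NCOA3 and NCOR1 were higher and HOXB13 was lower in the Dox libraries. NCOA2 did not pass the test. In the limma fit over all 14833 genes, at an adjusted p under 0.05 (Benjamini-Hochberg), 5 of the 7 genes were higher and 1 was lower in Dox. Of all tested genes, 53.7% passed in either direction, 35.9% higher and 17.8% lower. The median log2 fold change was 0.50 for the 7 genes and 0.10 for all tested genes, so small changes are to be read against 0.10. The Dox and Ctrl libraries did not overlap for any of the 7 genes, 6 of them higher in Dox. The same was true of 61.9% of tested genes, 40.8% higher in Dox.

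**Figure D1:**
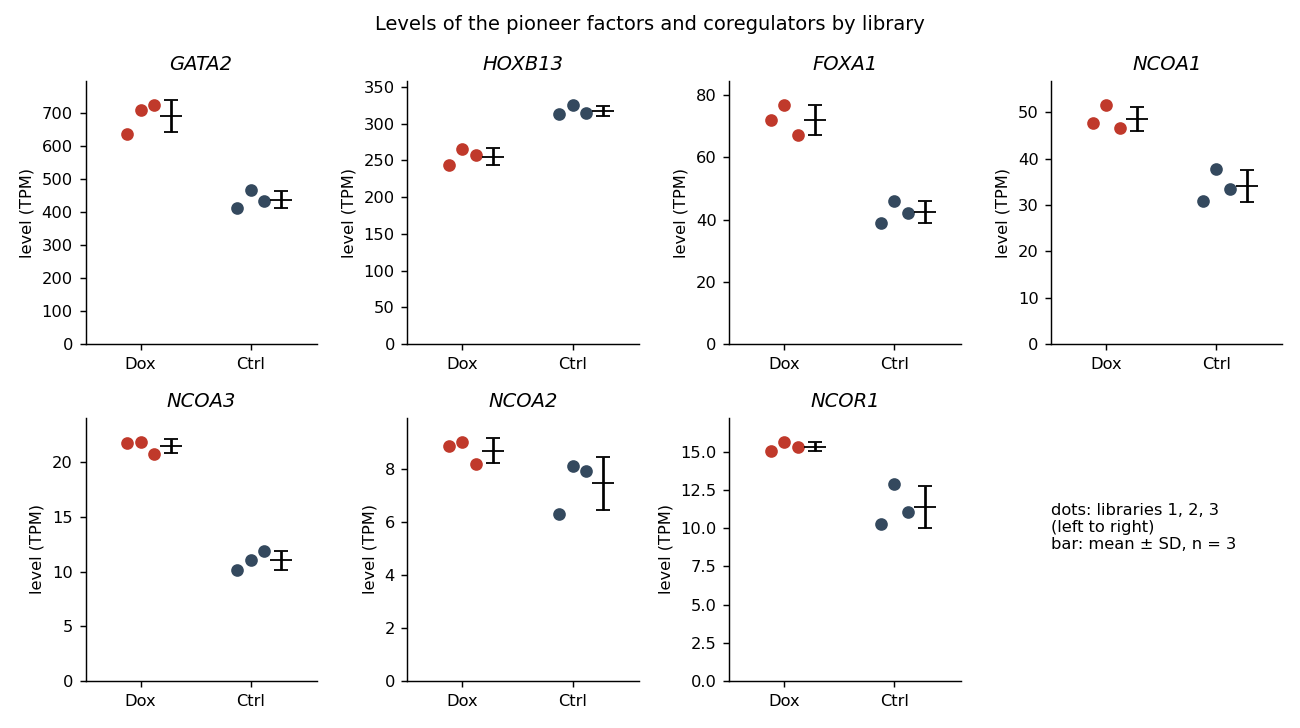
Levels of the 7 genes in TPM in each library, with Dox left of Ctrl in every panel. Dots are libraries and bars are the mean ± SD of 3 libraries; each vertical axis starts at 0 and has its own range. All Dox values of HOXB13 lie below all its Ctrl values, and for the other 6 genes all Dox values lie above all Ctrl values.

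GATA2 had the highest level of the 7 genes in both groups. It was measured at 634, 709 and 723 TPM in Dox 1 to 3, against 413, 466 and 433 TPM in Ctrl 1 to 3. The lowest Dox library stood well above the highest Ctrl library. Mean levels were 689 ± 47.8 TPM in Dox and 437 ± 27.1 TPM in Ctrl (SD, n = 3 each), a 1.58-fold higher level in Dox. The log2 fold change on the log2(TPM + 1) scale was 0.65 ± 0.06 (SE), with a 95% interval of 0.51 to 0.80 and a limma adjusted p of 8.1e-05. The difference of 252 TPM was the largest among the 7 genes, as was the level.

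FOXA1 was higher by a similar factor from a much lower base. It was measured at 72.0, 76.8 and 67.2 TPM in Dox 1 to 3, against 38.9, 46.0 and 42.2 TPM in Ctrl 1 to 3. The groups were separated by more than the range within either one. The log2 fold change was 0.75 ± 0.07 (95% interval 0.59 to 0.92, limma adjusted p = 8.6e-05).

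HOXB13 was the 1 pioneer factor that fell. It was measured at 243, 265 and 257 TPM in Dox 1 to 3, against 313, 326 and 315 TPM in Ctrl 1 to 3. All 3 Dox libraries were lower than every Ctrl library, although the difference was small. The mean of 255 ± 11.1 TPM in Dox was 1.24-fold lower than the mean of 318 ± 6.79 TPM in Ctrl (SD, n = 3 each), and the log2 fold change was -0.32 ± 0.04 (95% interval -0.40 to -0.23, limma adjusted p = 0.00032). Relative to the median of all tested genes the difference was -0.41. HOXB13 kept its direction and its call under each of the 15 alternatives tried, as did FOXA1, GATA2, NCOA1 and NCOA3.

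The p160 coactivators did not move by the same amount. NCOA3, the family member often amplified in breast cancer, was measured at 21.8, 21.9 and 20.7 TPM in Dox 1 to 3, against 10.2, 11.0 and 11.9 TPM in Ctrl 1 to 3. Every Dox library lay far above the highest Ctrl library. The ratio of means was 1.94, and the log2 fold change was 0.90 ± 0.07 (95% interval 0.75 to 1.05, limma adjusted p = 2.1e-05), the highest of the 7 genes. NCOA1, the first p160 protein to be described and the most abundant of the family here, was measured at 47.6, 51.6 and 46.6 TPM in Dox 1 to 3, against 30.9, 37.8 and 33.4 TPM in Ctrl 1 to 3. The groups did not overlap, and the Ctrl libraries were more spread than the Dox libraries. Its log2 fold change was 0.50 ± 0.08 (95% interval 0.33 to 0.68, limma adjusted p = 0.00092).

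NCOA2 was measured at 8.89, 9.03 and 8.17 TPM in Dox 1 to 3, against 6.32, 8.12 and 7.92 TPM in Ctrl 1 to 3. The lowest Dox library lay just above the highest Ctrl library, and Ctrl 1 stood below the other 2. The log2 fold change was 0.20 ± 0.10, with a 95% interval of -0.02 to 0.43 that holds 0, and it did not pass (limma adjusted p = 0.11). It passed with voom on recovered reads (0.19, adjusted p = 0.036) and was 0.10 without Ctrl 1.

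NCOR1, on the corepressor side, was measured at 15.1, 15.7 and 15.3 TPM in Dox 1 to 3, against 10.3, 12.9 and 11.1 TPM in Ctrl 1 to 3. The Dox libraries lay close together above the more spread Ctrl libraries. The log2 fold change was 0.40 ± 0.08 (95% interval 0.22 to 0.59, limma adjusted p = 0.0041). The call ended once the trend of each library with gene length was removed, an alternative chosen after seeing the data (0.10, adjusted p = 0.17), and the value fell to 0.24 after quantile normalization (adjusted p = 0.015). GENCODE 29 lists 3 pseudogene copies of NCOR1, whose reads may be shared with it.

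**Figure D2:**
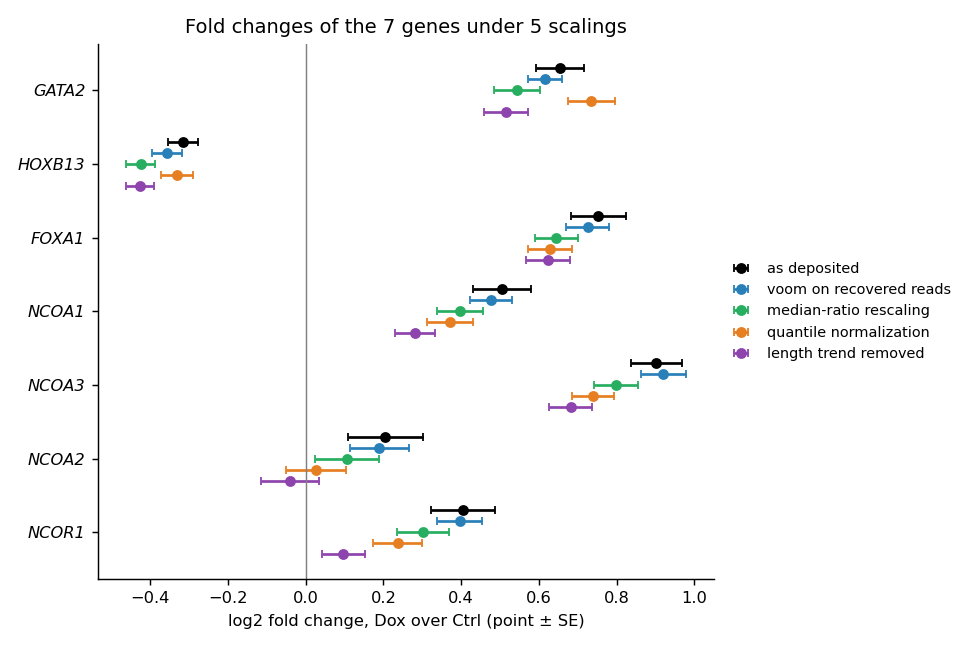
Log2 fold change of Dox over Ctrl for the 7 genes, as a point with its SE, on the deposited scale and under 4 other ways of scaling or testing. HOXB13 is below 0 and FOXA1, GATA2, NCOA1, NCOA3 and NCOR1 are above 0 under all 5; NCOA2 runs between 0.20 and -0.04.

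Gene length moved with the fold changes of the whole table. The median log2 fold change was -0.0020 over 2061 tested genes under 1 kb, 0.06 over 3935 genes of 2 to 4 kb, 0.13 over 5220 genes of 4 to 8 kb and 0.20 over 2121 genes of at least 8 kb. The coregulators are long, with 8447 bases behind the TPM of NCOA3, 8633 for NCOA1, 10026 for NCOA2 and 15393 for NCOR1, and the pioneer factors shorter, with 3467 for HOXB13, 4111 for FOXA1 and 4459 for GATA2. With the trend removed, the log2 fold changes were 0.68 for NCOA3, 0.62 for FOXA1, 0.51 for GATA2, 0.28 for NCOA1, 0.10 for NCOR1, -0.04 for NCOA2 and -0.43 for HOXB13. Those of NCOR1 and NCOA2 did not pass, and the other 5 did. Whether the trend comes from the libraries or from the cells was not tested.

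**Figure D3:**
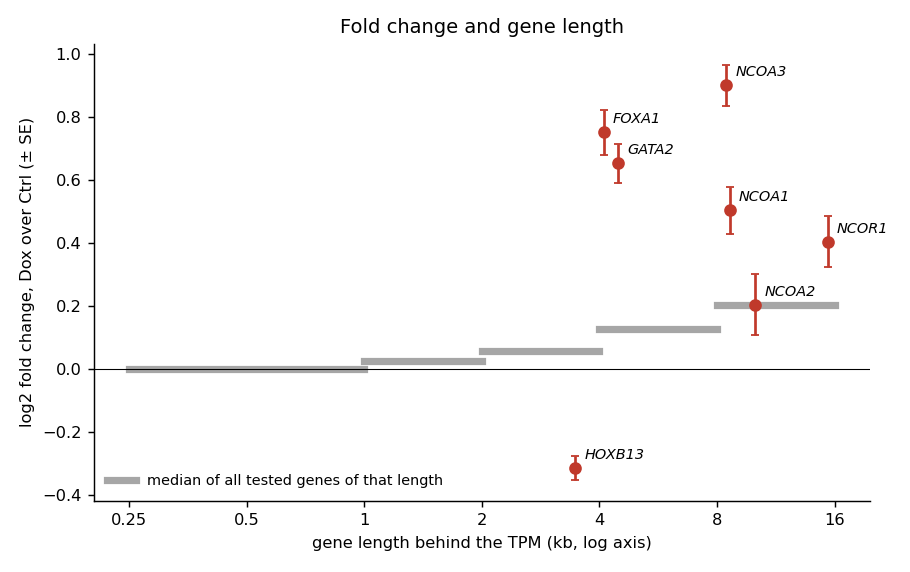
Log2 fold change of Dox over Ctrl (± SE) against the gene length behind the TPM values in kb, on a log axis. Grey bars are the medians of all tested genes in 5 length classes, the shortest drawn from 0.25 kb and the longest to 16 kb; NCOA2 lies on the median of its class and NCOA3, FOXA1 and GATA2 lie well above theirs.

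In all 7 genes the lowest Ctrl value was that of Ctrl 1. Without that library the log2 fold changes were 0.85 for NCOA3, 0.69 for FOXA1, 0.61 for GATA2, 0.44 for NCOA1, 0.34 for NCOR1 and -0.33 for HOXB13, and each still passed. The genes rested on between 568 reads (NCOA2 in Ctrl 1) and 28370 reads (GATA2 in Dox 3) per library. For NCOA2 counting alone gives an error of 3.75% in Dox and 3.94% in Ctrl, against a coefficient of variation of 5.28% in Dox and 13.2% in Ctrl. In Dox the coefficient of variation of NCOR1, 2.01%, was no larger than its counting error of 2.27%. That of NCOA3, 2.99%, was close to its counting error of 2.60%. The read counts of NCOR1 and NCOA3 rest on inferred lengths.

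Ratios between genes within a library do not depend on a single scaling factor per library. Quantile normalization and removal of the length trend can move them. After quantile normalization the log2 fold change was 0.63 for FOXA1 and 0.73 for GATA2, the reverse of their order on the deposited scale. The level of NCOA3 per NCOA2 was 2.45, 2.42 and 2.54 in Dox 1 to 3, against 1.61, 1.36 and 1.51 in Ctrl 1 to 3, which is 1.66-fold higher in Dox. The level of NCOA3 per NCOA1 was 1.36-fold higher in Dox, and that of NCOA2 per NCOA1 was 0.82-fold its Ctrl value. Within the summed p160 level of 78.8 ± 3.50 TPM in Dox and 52.5 ± 4.80 TPM in Ctrl (SD, n = 3 each), NCOA3 made up 27.3% ± 0.661 in Dox and 21.1% ± 1.54 in Ctrl. NCOA1 made up 61.7% ± 0.847 in Dox and 64.8% ± 1.86 in Ctrl, and NCOA2 11.0% ± 0.277 in Dox and 14.2% ± 0.780 in Ctrl. The summed p160 level per NCOR1 was 5.20, 5.26 and 4.92 in Dox 1 to 3, against 4.63, 4.41 and 4.82 in Ctrl 1 to 3, a 1.11-fold difference with groups close to each other.

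Among the pioneer factors, FOXA1 per HOXB13 was 0.296, 0.289 and 0.261 in Dox 1 to 3, against 0.124, 0.141 and 0.134 in Ctrl 1 to 3. That is 2.12-fold higher in Dox. HOXB13 per GATA2 was 0.384, 0.374 and 0.356 in Dox 1 to 3, against 0.758, 0.698 and 0.727 in Ctrl 1 to 3. FOXA1 per GATA2 was 0.114, 0.108 and 0.0929 in Dox 1 to 3, against 0.0942, 0.0986 and 0.0974 in Ctrl 1 to 3, and these groups overlapped. An exact permutation test over the 6 libraries (two-sided) gave p = 0.10, the smallest that 3 against 3 allows, for 6 of the 7 ratios and p = 0.40 for FOXA1 per GATA2. Adjusted over the 7 ratios these are 0.12 and 0.40, so no ratio could pass at this size.

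**Figure D4:**
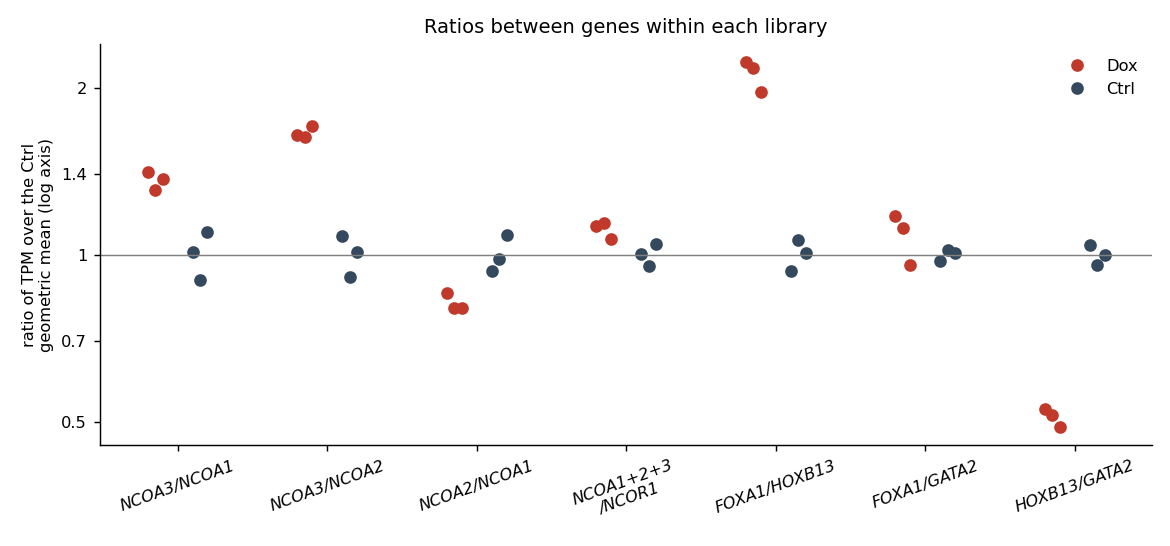
The 7 ratios of TPM between genes in each library, divided by the geometric mean of the Ctrl libraries, on a log axis, with Dox left of Ctrl. FOXA1 over HOXB13 lies near 2 in Dox and HOXB13 over GATA2 near 0.5, and the libraries of FOXA1 over GATA2 overlap.

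By level per length, the order in Dox was GATA2, HOXB13, FOXA1, NCOA1, NCOA3, NCOR1 and NCOA2, and no neighbours in that order overlapped between their libraries. The order in Ctrl was the same except that NCOR1, at 11.4 ± 1.37 TPM, came before NCOA3, at 11.0 ± 0.877 TPM (SD, n = 3 each). The libraries of these genes overlapped in Ctrl. By mean level over all 6 libraries GATA2 ranked 291 and HOXB13 586 among the 14833 tested genes. FOXA1 ranked 3021, NCOA1 3949, NCOA3 7024, NCOR1 7715 and NCOA2 9364.

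The RefSeq promoter table (GRCh38.p14) gave windows from 250 bases before to 50 bases after the start for FOXA1, GATA2, NCOA1, NCOA3 and NCOR1, 9 windows in all. They were searched on both strands for 4 motifs, and no window held more than 1 of them. The motif of TEAD proteins, the DNA-binding partners of YAP1, was searched as GGAATG and was present in 14.0% of all 35116 windows. The AP-1 motif was searched as TGANTCA and was present in 7.71% of windows. The forkhead motif was searched as TGTTTAC and was present in 3.42% of windows. The GATA motif was searched as AGATAA and was present in 10.3% of windows. The windows of NCOA3 (chr20:47501637-47501936, plus strand), FOXA1 (chr14:37595200-37595499, minus strand) and GATA2 (chr3:128493152-128493451, minus strand, the upstream of its 2 windows) are shown because these are the genes with the highest fold changes. The upstream of the 2 NCOR1 windows (chr17:16215485-16215784, minus strand) is shown because it also holds a motif. Capitals mark the motifs.
NCOA3: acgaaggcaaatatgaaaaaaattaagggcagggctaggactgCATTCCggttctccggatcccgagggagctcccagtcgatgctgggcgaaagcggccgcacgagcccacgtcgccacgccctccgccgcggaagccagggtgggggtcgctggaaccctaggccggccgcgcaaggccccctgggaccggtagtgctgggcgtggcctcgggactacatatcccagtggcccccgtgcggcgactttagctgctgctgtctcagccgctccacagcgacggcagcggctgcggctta
FOXA1: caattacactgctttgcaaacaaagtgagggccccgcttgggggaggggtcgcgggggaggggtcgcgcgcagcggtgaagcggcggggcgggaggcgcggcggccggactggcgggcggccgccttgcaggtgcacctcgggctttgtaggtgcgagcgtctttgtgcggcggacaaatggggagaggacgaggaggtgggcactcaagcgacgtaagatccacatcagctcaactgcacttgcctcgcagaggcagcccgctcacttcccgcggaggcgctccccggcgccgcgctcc
GATA2: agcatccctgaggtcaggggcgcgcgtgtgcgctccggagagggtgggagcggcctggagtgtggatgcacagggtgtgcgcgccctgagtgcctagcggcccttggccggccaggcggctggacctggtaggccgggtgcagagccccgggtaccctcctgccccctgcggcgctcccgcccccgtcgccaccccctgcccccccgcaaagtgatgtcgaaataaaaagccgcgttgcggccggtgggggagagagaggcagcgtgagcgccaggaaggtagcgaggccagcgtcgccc
NCOR1: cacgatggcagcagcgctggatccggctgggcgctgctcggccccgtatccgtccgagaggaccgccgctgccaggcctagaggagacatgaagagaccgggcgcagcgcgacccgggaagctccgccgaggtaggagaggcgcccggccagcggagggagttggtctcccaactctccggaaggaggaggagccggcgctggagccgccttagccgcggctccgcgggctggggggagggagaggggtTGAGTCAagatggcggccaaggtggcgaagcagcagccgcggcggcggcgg
The NCOA3 window holds CATTCC, the TEAD motif on the reverse strand, beginning at position -207 from the start. The NCOR1 window shown holds TGAGTCA across the start itself, and the other NCOR1 window holds none of the 4 motifs. Neither the FOXA1 window nor the 2 GATA2 windows hold any of the 4 motifs. Of the 3 NCOA1 windows, which are not shown, 1 holds the GATA motif. A match is a description of letters, and whether YAP1, TEAD or AP-1 proteins were bound there was not tested. The windows shown were rich in G and C, at 66.7% in NCOA3, 69.3% in FOXA1, 72.3% in GATA2 and 72.7% in NCOR1. The median over all windows was 58.7%. Of the windows not shown, those of NCOA1 were at 85.7%, 73.0% and 28.7%. The other GATA2 window was at 71.3% and the other NCOR1 window at 26.3%.

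Genes whose profiles over the 6 libraries were most like those of the 7 genes were found by the root mean square difference of centred log2(TPM + 1) values. For FOXA1 they were SDR16C5 (0.010), PIK3C2A (0.013) and IWS1 (0.025), and for GATA2 PIEZO1 (0.012), CNNM4 (0.021) and HPCAL1 (0.022). The nearest to HOXB13 were NCLN (0.018), RGMB (0.021) and SCD (0.021). NCOA3 was nearest to SYNPO (0.031), ADAM10 (0.032) and UBL3 (0.033), NCOA1 to ICMT (0.014), DTD2 (0.016) and TCTN2 (0.020), NCOA2 to CCDC174 (0.022), EIF5A2 (0.027) and HTR2C (0.029), and NCOR1 to SLC7A1 (0.019), DMXL2 (0.023) and PPP1R26 (0.024). With 2 groups of 3, such likeness mostly reflects a fold change of the same size on the log2(TPM + 1) scale. SDR16C5 had mean levels of 2.18 TPM in Dox and 0.886 TPM in Ctrl, and SYNPO of 1.88 TPM in Dox and 0.525 TPM in Ctrl. Changes of genes near 1 TPM come out too small on this scale. Their ratios of mean TPM were larger than those of FOXA1 and NCOA3.

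Other genes of the same roles moved in both directions. Of 99 genes on 4 lists, 79 were tested, of which 26 were higher, 18 lower and 35 did not pass, with a median log2 fold change of 0.04. In the same fit 53.7% of all tested genes passed, 35.9% higher and 17.8% lower. The counts of all 4 lists together and of each list below are to be read against these shares. The split depended on scaling. With libraries rescaled by median ratios it was 21 higher and 32 lower, where 53.3% of all tested genes passed, 26.7% higher and 26.6% lower. Quantile normalization gave 19 higher and 34 lower, where 53.2% of all tested genes passed, 23.8% higher and 29.3% lower. With the length trend removed it was 17 higher and 37 lower, where 54.6% of all tested genes passed, 22.8% higher and 31.8% lower. With voom it was 27 higher and 23 lower, where 5208 of all 14833 tested genes were higher and 3303 lower.

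Of 22 forkhead, GATA and HOX genes related to the pioneer factors, 19 were listed. Of these 19, 11 passed the filter, as did 14833 of all 26819 listed genes. Of the 11, 4 were higher and 3 lower (3 higher, 4 lower by median ratios). FOXA2 and FOXA3, the paralogs of FOXA1, reached at most 0.051 and 0.061 TPM in any library, and GATA3, the GATA factor of the mammary and T cell lineages, at most 0.072 TPM. HOXC13, a paralog of HOXB13 in another HOX cluster, was at 64.3 ± 0.490 TPM in Dox and 23.0 ± 1.12 TPM in Ctrl (SD, n = 3 each), and rose by 1.45 ± 0.05 on the log2 scale (limma adjusted p = 2.7e-07). HOXD13 was near the filter, at 2.90 ± 0.493 TPM in Dox and 1.39 ± 0.499 TPM in Ctrl (SD, n = 3 each). It was 2.09-fold higher, with a log2 fold change of 0.72, and HOXA13 was 1.26-fold higher. The call of HOXA13 ended by median ratios (limma adjusted p = 0.11), by quantiles (0.30), with the length trend removed (0.25), without the filter (0.072), without any 1 of the Dox libraries (0.061 to 0.085) and without Ctrl 1 (0.080) or Ctrl 2 (0.075). HOXB9, from the HOXB13 cluster, was 1.77-fold lower, at 2.60 ± 0.455 TPM in Dox and 4.58 ± 0.940 TPM in Ctrl (SD, n = 3 each). FOXO3, a forkhead factor held in check by AKT, was 1.85-fold lower and its relative FOXO1 1.65-fold higher. FOXP1, at mean levels of 1.79 TPM in Dox and 2.42 TPM in Ctrl, was 1.35-fold lower. The call of FOXP1 ended without the filter (limma adjusted p = 0.060), with a replicate block (0.062) and when any 1 library was left out (0.054 to 0.089).

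Among transcription factors that work beside the receptor, 16 of 21 were tested, of which 4 were higher and 5 lower (4 higher, 6 lower by median ratios). NFIB, a nuclear factor I protein that binds FOXA1, was at 38.9, 42.2 and 38.2 TPM in Dox 1 to 3, against 8.73, 11.0 and 10.3 TPM in Ctrl 1 to 3, a 3.97-fold higher level. NFIC of the same family was 1.17-fold lower, and its call ended without Dox 1 (limma adjusted p = 0.060). TFAP2C, an AP-2 factor, rose by 1.17 ± 0.06, CREB1, the cyclic AMP response factor, by 0.76 ± 0.06 and GRHL2, an epithelial factor, by 0.63 ± 0.08 on the log2 scale (SE). SOX9 was 2.10-fold lower and the luminal ETS factor SPDEF 1.19-fold lower.

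Among 31 tested coactivators of 33, 11 were higher and 7 lower, but by median ratios 8 were higher and 11 lower. NCOA7, which shares the NCOA name but is not a p160 protein, was measured at 54.7, 54.4 and 52.8 TPM in Dox 1 to 3, against 10.0, 10.3 and 9.97 TPM in Ctrl 1 to 3. Its groups lay far apart, and it rose by 2.31 ± 0.04 on the log2 scale (limma adjusted p = 3.0e-08), the largest rise among the tested genes of the 4 lists. ARID1A, a subunit of the SWI/SNF chromatin remodeller, was 3.24-fold higher, at 59.8 ± 3.39 TPM in Dox and 18.4 ± 1.37 TPM in Ctrl (SD, n = 3 each). KAT2B (PCAF), an acetyltransferase that p160 proteins recruit, was 2.01-fold higher, and MED12 of the Mediator complex was higher by 0.62 on the log2 scale. The acetyltransferases EP300 and CREBBP had log2 fold changes of 0.24 ± 0.07 and 0.36 ± 0.08. The call of EP300 ended without the filter (limma adjusted p = 0.060), by median ratios (0.095), by quantiles (0.27), with the length trend removed (0.997) and without Dox 2, Dox 3, Ctrl 1 or Ctrl 3 (0.0502 to 0.092). That of CREBBP ended with the length trend removed (limma adjusted p = 0.46). PNRC1, a proline-rich nuclear receptor coactivator, was 2.08-fold lower and PNRC2 1.44-fold lower. The histone demethylase KDM3A was 1.66-fold lower and the acetyltransferase KAT2A (GCN5) 1.34-fold lower.

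Among 21 tested corepressors of 23, 7 were higher and 3 lower, but by median ratios 6 were higher and 11 lower, and with voom 7 were higher and 7 lower. The partners of NCOR1 in its complex did not move alike. TBL1XR1, a subunit of that complex, was 1.43-fold higher. Its other subunits TBL1X, GPS2 and HDAC3 had log2 fold changes of -0.19, -0.14 and -0.03 that did not pass, and of -0.30, -0.24 and -0.14 that passed by median ratios. They also passed by quantiles and with the length trend removed, and TBL1X passed at a mean of at least 5 TPM (limma adjusted p = 0.042), with a replicate block (0.025), with voom (0.0012) and without Ctrl 1 (0.026). Outside that complex, SPEN was 1.78-fold higher, and CTBP2 and LCOR were higher by 0.57 and 0.45 on the log2 scale. PHB (prohibitin) was 1.18-fold lower and SIN3A, the scaffold for HDAC1 and HDAC2, 1.14-fold lower. The call of SIN3A ended without Dox 1 (limma adjusted p = 0.0504).

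**Figure D5:**
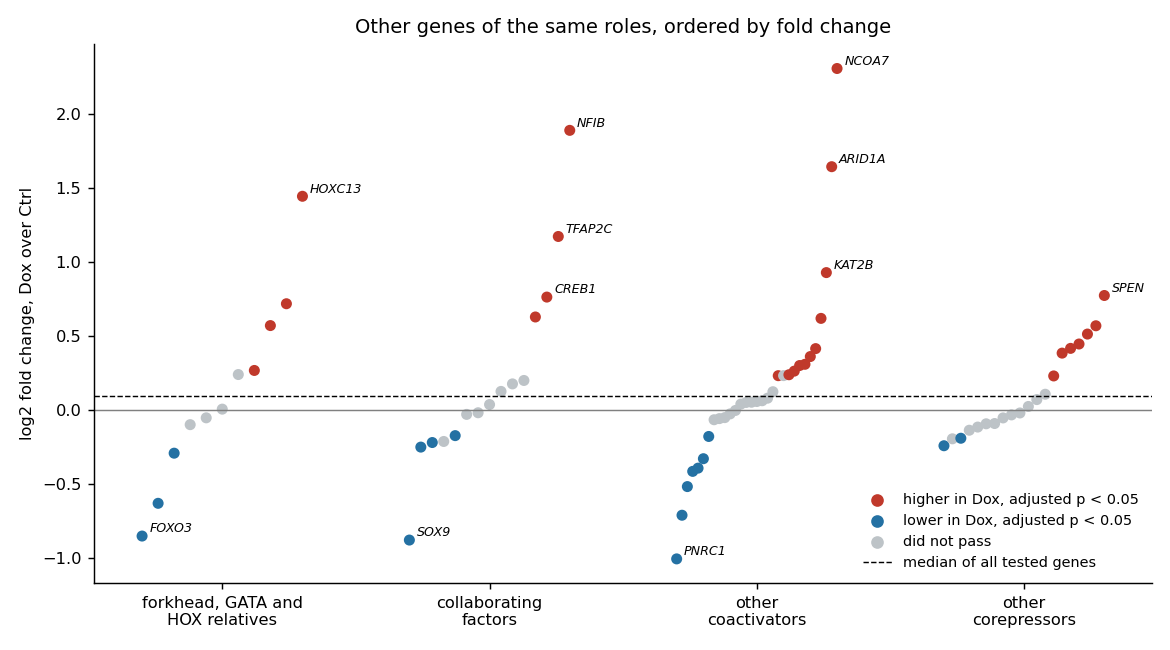
Log2 fold change of Dox over Ctrl for the tested genes of the 4 lists, ordered within each list, with 2 genes not shown. Red genes were higher and blue genes lower in Dox, grey genes did not pass, and the dashed line is the median of all tested genes, 0.10; NCOA7, NFIB and ARID1A are at the top.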

How the data were processed

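Stranded mRNA libraries of Tet-O-YAP5SA C4-2 cells were grouped by sample title into 3 Dox and 3 Ctrl libraries. The deposited table gives TPM, computed by the authors. The submitters' processing notes name FastQC 0.11.2, STAR 2.5.3a, featureCounts, edgeR and the hg19 build, with no roles or settings. Which annotation release was used is not given in the sources here.

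The 14833 of 26819 genes that reached 1 TPM in 3 or more libraries entered a limma fit (version 3.58.1, R 4.3.3, lmFit and eBayes with trend). The test ran on log2(TPM + 1) and was two-sided, and p-values were adjusted over all of these genes (Benjamini-Hochberg). Changes of genes near 1 TPM come out too small on this scale. Folds without "log2" are ratios of mean TPM. Whole reads were recovered from the TPM values for all 14833 genes within 0.01 reads, with the GENCODE 29 exon length for 9115 of them and otherwise the smallest whole length that fits. The recovery and the fit were tested on simulated data. No 2 libraries of a group agreed within counting noise (a chi-square of 2.55 to 4.99 per gene), so none were merged.

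The 7 genes and the lists were chosen with earlier results of these data known. From each list up to 4 called genes per direction with the largest change and no overlap were named, and for each of the 7 genes the 3 most similar profiles. EP300, CREBBP, the paralogs FOXA2, FOXA3 and GATA3, and the NCOR1 partners were named after their values were seen. In all, 2 genes that meet the rule are not reported here. FOXA1, NCOA3 and NCOR1 share 16, 96 and 321 exon bases with genes on the opposite strand in GENCODE 29 (TTC6, SULF2 and PIGL), and NCOR1 shares another 188 with the antisense gene AC002553.1. The promoter table gave no window for HOXB13, and NCOA2 was left out of the promoter search. Figures were drawn with matplotlib 3.10.9.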

Additional observations from a re-analysis of the deposited data

How the results depend on the processing

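Besides the deposited scale, the fits used no filter, a filter on a mean of 5 TPM or more, a pseudocount of 0.1, libraries rescaled by median ratios or by quantiles, no variance trend, a replicate block, voom on recovered reads and each library left out. Removal of the length trend (loess, span 0.3) was added after the data were seen. Calls over all genes were 5319 higher and 2640 lower, but 3536 and 4348 after quantile normalization, 3381 and 4720 with the length trend removed, and 5208 and 3303 with voom on the recovered reads. On the 4 lists, 26 genes were higher and 18 lower, with 32 lower after median-ratio rescaling, 34 after quantile normalization, and 17 higher and 37 lower with the length trend removed. NCOA2 passed with voom (0.19) and turned to -0.041 with the length trend removed, where NCOR1 no longer passed (0.10). Over all tested genes, deviations of same-numbered Dox and Ctrl libraries from their group means had correlations of -0.0085, 0.063 and 0.0035. Libraries of unlike numbers gave -0.040 to 0.038. The replicate block lowered the SE of GATA2 from 0.061 to 0.034 and raised that of NCOA3 from 0.065 to 0.069. Whether the numbers pair the libraries cannot be told from these values. With the replicate block 5223 genes were higher and 2618 lower, and no call among the 7 genes changed. Of the named genes of the 4 lists, the call of FOXP1 ended and TBL1X came to pass. Leaving out 1 library, the range was 4445 to 5278 genes higher and 2204 to 2417 lower, and no ratio changed direction. NCOA2 had the fewest reads of the 7 genes, with 568 to 750 per library.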

Other observations

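The nearest tested protein-coding genes on either side of each of the 7 genes, in RefSeq order, were looked up after the data were seen. They are given as values. Next to FOXA1, TTC6 was at 14.1 ± 0.853 TPM in Dox and 5.61 ± 0.332 TPM in Ctrl (SD, n = 3 each), and its libraries did not overlap (limma adjusted p = 6.6e-06). MIPOL1, on the other side, had 0.16 ± 0.09 and did not pass (adjusted p = 0.16). Next to HOXB13, the prostate transcript PRAC1 was at 6.28, 5.36 and 8.61 TPM in Dox 1 to 3, against 16.6, 15.2 and 10.4 TPM in Ctrl 1 to 3, a log2 fold change of -0.96 ± 0.19 (limma adjusted p = 0.0042). CALCOCO2, on its other side beyond 1 untested gene, fell by 0.22. PREX1, the next tested gene beyond NCOA3 with 1 untested gene between, was at 74.8, 87.0 and 78.6 TPM in Dox 1 to 3, against 5.67, 6.33 and 5.79 TPM in Ctrl 1 to 3, a log2 fold change of 3.55 ± 0.07. ZMYND8, on the other side of NCOA3, had 0.20 ± 0.06 (limma adjusted p = 0.032). The neighbours of GATA2 moved less than GATA2 itself, with 0.19 ± 0.05 for EEFSEC and -0.14 ± 0.03 for RPN1. Next to NCOA2, which did not pass, TRAM1 and ARFGEF1 had 0.58 ± 0.07 and 0.30 ± 0.05 (limma adjusted p = 0.00022 and 0.0019), with 6 untested genes before ARFGEF1. Next to NCOA1, ITSN2 had 0.19 ± 0.06 and PTRHD1 -0.21 ± 0.05 (limma adjusted p = 0.035 and 0.0095). The neighbours of NCOR1, TTC19 and PIGL, did not pass (-0.0011 and -0.08).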
